A study of Mus musculus with 6 samples.

Results

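The neuromuscular junction genes followed here encode the muscle acetylcholine receptor and the proteins that build and hold the postsynaptic side of the nerve-muscle contact. They number 10 of the 24411 genes in the table and were chosen by their known role, as 5 receptor subunits (Chrna1, Chrnb1, Chrnd, Chrne, Chrng) and 5 organizers (Musk, Rapsn, Dok7, Lrp4, Colq). They were taken up with the difference between the genotypes in these same libraries already known, together with the muscle content of each library. Their WT against mutant values are therefore a description, without a test.

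The libraries came from Achilles tendon of C57BL/6 mice aged 18 weeks, with 3 labelled WT and 3 labelled Scx-Cre/Piezo1 GOF, here called Piezo1 GOF. In the mutant mice Piezo1, an ion channel opened by mechanical force, is present as a gain-of-function (GOF) form, with Cre recombinase driven by sequence of Scx, a transcription factor gene of tendon and its progenitors. The labels give no Cre or allele to the WT mice, and do not say whether each library came from a separate animal. The p-values below thus reflect the variation among these 6 libraries alone, part of which could be technical. Cre in this design is directed to tendon cells, whereas the junction genes are known chiefly from muscle fibres.

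At the junction, the motor nerve releases agrin, which binds Lrp4, and Lrp4 in turn activates the receptor tyrosine kinase MuSK with the help of the adaptor Dok7. The scaffold protein rapsyn, the product of Rapsn, then gathers acetylcholine receptors beneath the nerve ending, and collagen Q (Colq) anchors acetylcholinesterase in the synaptic cleft. The receptor is a pentamer with a pair of alpha subunits, a beta and a delta subunit, and an epsilon subunit in the adult or a gamma subunit in the fetus and after loss of the nerve. Basic helix-loop-helix factors such as MyoD and myogenin drive receptor genes along the whole fibre through the E-box, and electrical activity holds them down outside the synapse. Ets-family factors such as GABP act at the N-box of genes transcribed by nuclei under the nerve ending.

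Promoters are shown for 3 members whose levels were lower in every mutant library, and for Chrne, the adult subunit gene, because these motifs differ among them. RefSeq windows (GRCm38.p6) of 300 bases, from 250 before to 50 after the annotated start, matched 6 of the 10 members, in 7 windows since Dok7 has 2. Letters run 5′ to 3′ on the gene's strand, and capitals mark the E-box CANNTG, searched on both strands, and the N-box CCGGAA with its reverse complement TTCCGG.
Chrna1, chr2:73580289-73580588, minus strand: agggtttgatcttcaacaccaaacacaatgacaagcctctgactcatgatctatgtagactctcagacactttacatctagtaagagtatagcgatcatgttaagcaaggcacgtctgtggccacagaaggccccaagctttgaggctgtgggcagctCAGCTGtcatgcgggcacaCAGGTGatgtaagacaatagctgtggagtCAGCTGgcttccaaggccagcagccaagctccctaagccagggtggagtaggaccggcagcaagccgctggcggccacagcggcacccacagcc
Chrnb1, chr11:69795888-69796187, minus strand: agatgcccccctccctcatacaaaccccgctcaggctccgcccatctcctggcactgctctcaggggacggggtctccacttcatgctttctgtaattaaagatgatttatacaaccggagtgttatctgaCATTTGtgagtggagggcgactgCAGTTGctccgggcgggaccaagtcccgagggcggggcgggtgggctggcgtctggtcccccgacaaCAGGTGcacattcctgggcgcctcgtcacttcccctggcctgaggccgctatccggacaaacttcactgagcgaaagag
Musk, chr4:58285712-58286011, plus strand: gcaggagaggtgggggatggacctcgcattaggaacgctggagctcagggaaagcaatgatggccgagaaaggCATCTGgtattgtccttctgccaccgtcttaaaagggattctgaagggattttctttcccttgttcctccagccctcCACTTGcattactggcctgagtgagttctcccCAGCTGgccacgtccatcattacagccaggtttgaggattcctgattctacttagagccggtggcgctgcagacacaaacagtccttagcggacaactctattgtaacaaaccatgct
Chrne, chr11:70619145-70619444, minus strand: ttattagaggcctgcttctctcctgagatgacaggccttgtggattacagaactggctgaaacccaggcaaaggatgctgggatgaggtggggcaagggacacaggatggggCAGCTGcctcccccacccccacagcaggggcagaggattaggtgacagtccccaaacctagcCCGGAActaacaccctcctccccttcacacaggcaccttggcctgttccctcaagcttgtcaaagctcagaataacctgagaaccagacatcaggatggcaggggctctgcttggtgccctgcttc

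All 6 members with a window held at least 1 E-box, against 72.3% of the 32851 RefSeq windows of this length. The form CAGCTG, which is one of the E-boxes just counted, lay in the windows of 4 members, Chrna1, Chrng, Musk and Chrne, against 16.3% of all windows. Chrna1 held it at -92 and -44 from the gene start, Chrng at -155 and -132, Musk at -68 and Chrne at -138. The N-box was found in the window of 1 member, Chrne, at -76, against 14.9% of all windows. These are matches of letters in a window and not measured binding.

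Several properties of the libraries bear on these genes. Total counts lay between 8131527 and 17180856, and 3 counts in a library correspond to 0.192 to 0.390 CPM, that is counts per 1000000 of a TMM-scaled library. Tendon was present in every library, with the tenocyte gene Tnmd at 15.8 to 108 CPM in WT and 140 to 264 CPM in Piezo1 GOF. The summed level of 12 tenocyte markers was 5133 to 16625 CPM in WT and 30135 to 52151 CPM in Piezo1 GOF. Piezo1 itself was at 103 to 144 CPM in WT and 128 to 178 CPM in Piezo1 GOF, and these ranges overlap. The 32 skeletal muscle markers, such as skeletal actin and the fast and slow myosins, took 10.1%, 18.0% and 15.4% of each WT library and 8.53%, 3.19% and 7.69% of each mutant library, in replicate order. All 3 mutant libraries were thus lower in this share, and Piezo1 GOF replicate 2 stood lowest. WT replicate 1 stood apart in nerve transcripts, with 3718 CPM over 12 Schwann cell markers against 174 to 609 CPM in the other 5 libraries. The 10 macrophage markers summed to 172 to 269 CPM for WT and 653 to 808 CPM for Piezo1 GOF, and the 5 erythroid markers to 11.2 to 36.0 and 20.97 to 71.8 CPM. The part of these other cell types in the values below was not tested.

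**Figure D1:**
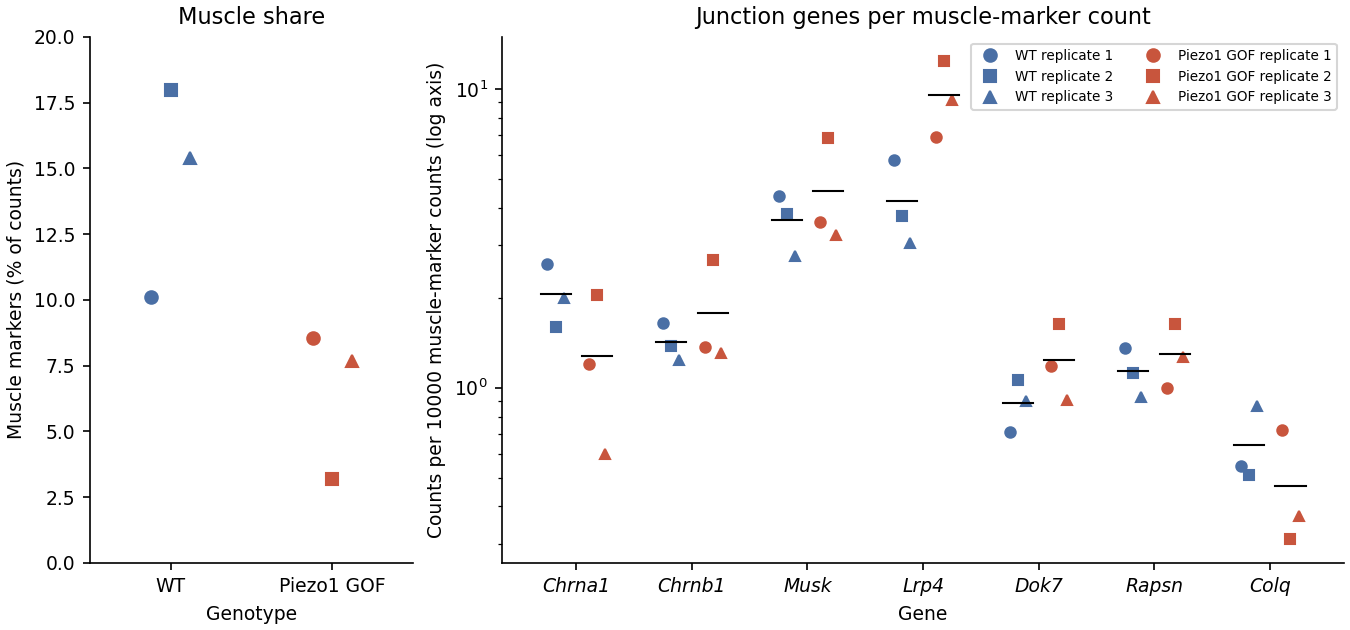
Left, share of counts from 32 skeletal muscle markers in each library, in percent. Right, counts of 7 junction genes per 10000 muscle-marker counts on a log axis; symbols are single libraries, blue WT and red Piezo1 GOF, and black lines are group means. Muscle share is lower in all 3 mutant libraries. On the right only Lrp4 separates the groups, with all mutant libraries higher, as in 45% of all genes tested.

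Of the 10 members, 7 had enough counts to enter the fit across 13466 genes, and all 7 had a lower fitted level in Piezo1 GOF. Their median log2 fold change (Piezo1 GOF over WT) was -1.12, against -0.00448 over all genes tested and -1.03 over the 32 muscle markers. For 4 of the 7, Chrna1, Chrnb1, Musk and Rapsn, every mutant library lay below every WT library, as it did for 12.1% of all genes tested. By the quasi-likelihood test of edgeR, adjusted by Benjamini-Hochberg over all genes, 0 of the 7 passed 0.05, where 0.0149% of genes did, and 5 had an unadjusted p under 0.05 on the lower side, where 9.59% did. DESeq2 placed Chrna1, Chrnb1 and Musk past its adjusted threshold on the lower side (2.74% of genes), and edgeR's exact test placed the same 3 (1.72% of genes). Since the contrast was known when the genes were taken up, nothing is read from these counts. Muscle marker shares moved with the genotype in the same direction. Fewer muscle fibres in the sample and less of these transcripts per fibre cannot be told apart in bulk tissue.

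**Figure D2:**
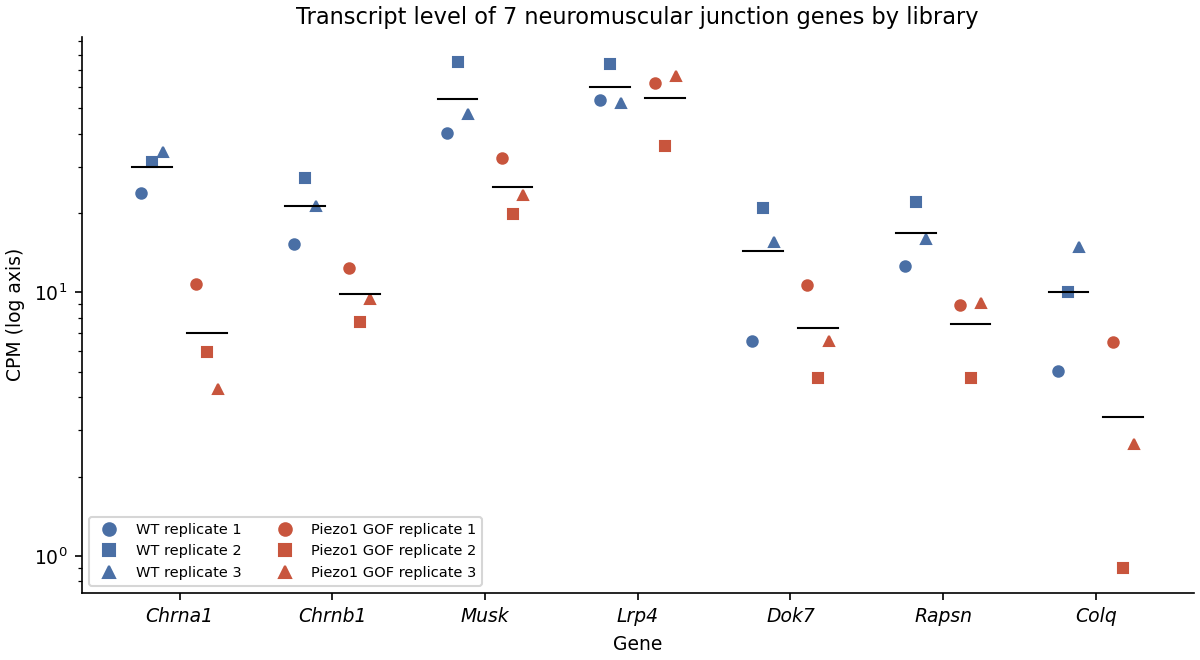
Transcript level in CPM (log axis) of the 7 junction genes that entered the fit, by library; blue WT, red Piezo1 GOF, black lines group means (n = 3 each). Chrna1, Chrnb1, Musk and Rapsn show no overlap between the genotypes, while Lrp4 lies between 36.0 and 74.0 CPM over the 6 libraries, with overlap.

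Among the receptor subunits, Chrna1 had the largest difference of the 7 genes. Chrna1 (ENSMUSG00000027107.3; mm10 chromosome 2, 73563215 to 73580338, minus strand) encodes the alpha subunit, which holds most of the acetylcholine binding site. It was at 23.9, 31.4 and 34.2 CPM in WT replicates 1 to 3 and at 10.8, 5.92 and 4.30 CPM in Piezo1 GOF replicates 1 to 3. The lowest WT library was above every mutant library, and the 3 mutant values were themselves more widely spread than the WT values in relative terms (coefficient of variation 48.3% against 17.7%). The means were 29.8 ± 5.28 and 7.004 ± 3.38 CPM (SD, n = 3), and the fitted log2 fold change was -2.11 ± 0.354 (SE), a 4.31-fold lower level. Of the 32 muscle markers, 1 had a more negative value, the slow myosin gene Myh7 at -2.16, and 60 of all 13466 genes did. The markers were not uniform and ran from -2.16 to 0.79. The slow troponin genes Tnnc1, Tnnt1 and Tnni1 had -1.89, -1.52 and -1.415. Their fast counterparts Tnnc2, Tnnt3 and Tnni2 had -0.53, -0.51 and -0.47, while Actn3, also of fast fibres, had -1.63.

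Chrnb1 (ENSMUSG00000041189.9; chromosome 11, 69784036 to 69795943, minus strand) encodes the beta subunit. Its levels were 15.2, 27.1 and 21.3 CPM in the WT libraries and 12.3, 7.72 and 9.42 CPM in the mutant libraries, in replicate order. The groups did not overlap, but WT replicate 1 and Piezo1 GOF replicate 1 lay close together. The log2 fold change was -1.12 ± 0.297 (SE, n = 3 each), near the muscle median, and 15 of the 32 muscle markers had a more negative one.

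The 2 subunits with enough counts therefore differed in proportion as well as in level. Per kb of annotated exon, Chrna1 was at 0.906, 0.668 and 0.927 times the level of Chrnb1 in WT replicates 1 to 3 and at 0.504, 0.442 and 0.264 times in Piezo1 GOF replicates 1 to 3. This ratio is taken within a library and was lower in all 3 mutant libraries. How often other pairs of genes separate in this way was not tested. Chrna1 made up 12.01% to 16.6% of the counts of the 10 genes in WT and 3.46% to 7.49% in Piezo1 GOF, while Chrnb1 made up 9.68% to 10.4% and 7.58% to 9.65%.

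The delta, epsilon and gamma subunit genes were close to the detection limit and did not enter the fit. Chrnd (ENSMUSG00000026251.13; chromosome 1, 87190607 to 87200070, plus strand) had 0, 8 and 24 counts in WT and 0, 2 and 25 in Piezo1 GOF, in replicate order. Its highest values, 2.71 and 1.85 CPM, were thus in replicate 3 of each genotype, and the groups overlapped. Chrne (ENSMUSG00000014609.16; chromosome 11, 70614883 to 70619216, minus strand) had 2, 3 and 1 counts in WT and 1, 0 and 9 in Piezo1 GOF. Chrng (ENSMUSG00000026253.14; chromosome 1, 87204657 to 87212694, plus strand), the fetal subunit gene beside Chrnd, had 0, 0 and 16 counts in WT and 1, 0 and 2 in Piezo1 GOF. All 16 WT counts of Chrng fell in WT replicate 3, the WT library with the highest Chrnd count. A difference in the balance of the adult and fetal subunits was not detectable at these low counts. Of the 6 libraries, 5 had 3 or fewer counts of Chrne and likewise of Chrng.

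Among the organizers, Musk and Lrp4 had the most counts, and they differed from each other between the genotypes. Musk (ENSMUSG00000057280.15; chromosome 4, 58285960 to 58374303, plus strand), the kinase of the junction, was at 40.4, 74.9 and 47.5 CPM for WT and at 32.2, 19.9 and 23.4 CPM for Piezo1 GOF, in replicate order. All mutant libraries were lower than all WT libraries, and the library with the least muscle, Piezo1 GOF replicate 2, was also lowest in Musk. The means were 54.3 ± 18.2 and 25.2 ± 6.39 CPM (SD, n = 3), with a log2 fold change of -1.11 ± 0.293 (SE).

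Lrp4 (ENSMUSG00000027253.15; chromosome 2, 91457511 to 91513779, plus strand) encodes the agrin receptor of the muscle surface, a protein that bone cells also use as a receptor for sclerostin. It was at 53.6, 74.0 and 52.4 CPM for WT and at 62.3, 36.0 and 66.1 CPM for Piezo1 GOF, in replicate order. The groups overlapped, with 2 of the 3 mutant libraries above 2 of the 3 WT libraries. The log2 fold change was -0.13 ± 0.275 (SE), and 30 of the 32 muscle markers had a more negative value. Its sign turned positive without WT replicate 2 (0.05) or without Piezo1 GOF replicate 2 (0.12), so no direction is given for Lrp4.

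Per kb, Musk stood at 2.10, 2.82 and 2.52 times Lrp4 in WT replicates 1 to 3 and at 1.44, 1.53 and 0.982 times in Piezo1 GOF replicates 1 to 3. The kinase was thus the more abundant of the pair in all 6 libraries but Piezo1 GOF replicate 3, and the ratio was lower in every mutant library than in any WT library. Here too, the share of other gene pairs that separate likewise was not tested.

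Rapsn (ENSMUSG00000002104.11; chromosome 2, 91035620 to 91045729, plus strand), the receptor scaffold, was at 12.6, 22.1 and 15.9 CPM for WT and at 8.97, 4.71 and 9.12 CPM for Piezo1 GOF. The groups did not overlap, and the log2 fold change was -1.15 ± 0.344 (SE, n = 3 each). Dok7 (ENSMUSG00000044716.12; chromosome 5, 35056766 to 35087839, plus strand), the adaptor of MuSK, was at 6.55, 20.9 and 15.5 CPM for WT and at 10.7, 4.71 and 6.52 CPM for Piezo1 GOF. WT replicate 1 lay within the mutant range, the log2 fold change was -0.98 ± 0.46, and it was -0.60 without WT replicate 2.

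Colq (ENSMUSG00000057606.14; chromosome 14, 31523082 to 31591343, minus strand), the collagen tail of acetylcholinesterase, varied widely within both genotypes. It was at 5.05, 10.03 and 14.9 CPM for WT and at 6.502, 0.903 and 2.67 CPM for Piezo1 GOF, in replicate order. The groups overlapped through WT replicate 1 and Piezo1 GOF replicate 1, and the log2 fold change was -1.60 ± 0.659 (SE). Without Piezo1 GOF replicate 1 it was -2.46. In the annotation, 199 exonic bases of Colq are shared with Gm49387, a protein-coding gene on the same strand, so its value is uncertain to that extent.

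**Figure D3:**
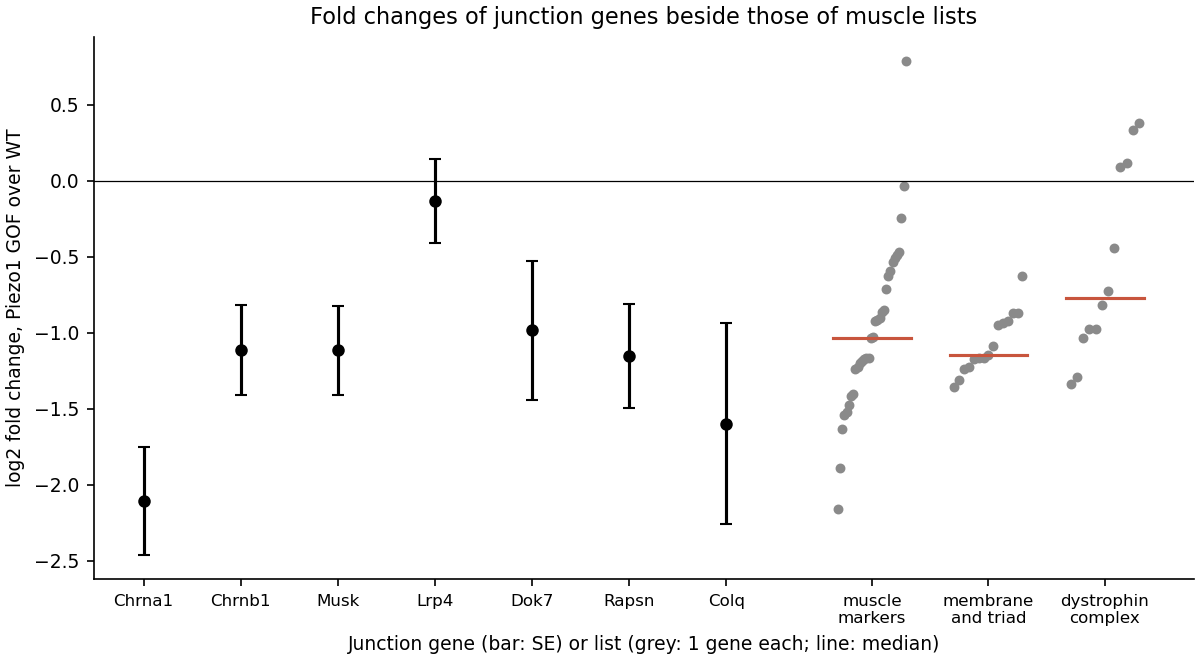
Log2 fold change (Piezo1 GOF over WT) of the 7 junction genes with SE bars, beside 32 skeletal muscle markers, 15 membrane and triad genes and 12 genes of the dystrophin complex (grey, 1 point a gene; red line, median). Chrna1 at -2.11 and Colq at -1.60 lie toward the lower end of the muscle markers, Lrp4 at -0.13 near the upper end, and the other 4 near the muscle median of -1.03.

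Ordered by level per kb, the members ran in WT from Musk (14.4 ± 4.83 CPM per kb; SD, n = 3) through Rapsn (9.36 ± 2.68), Chrnb1 (8.38 ± 2.34), Chrna1 (6.80 ± 1.202), Lrp4 (5.71 ± 1.15), Dok7 (3.35 ± 1.69) and Colq (2.63 ± 1.30). Chrnd (0.327 ± 0.439), Chrng (0.145 ± 0.251) and Chrne (0.103 ± 0.0315) came last. Each of these members differed from its neighbour by less than the larger SD of the pair, except Musk from Rapsn, Lrp4 from Dok7 and Colq from Chrnd. In Piezo1 GOF the order was Musk (6.66 ± 1.69), Lrp4 (5.22 ± 1.56), Rapsn (4.22 ± 1.39), Chrnb1 (3.88 ± 0.924), Dok7 (1.71 ± 0.713), Chrna1 (1.60 ± 0.770), Colq (0.883 ± 0.753), Chrnd (0.208 ± 0.309), Chrne (0.157 ± 0.209) and Chrng (0.0223 ± 0.0194). Among these neighbours only Chrnb1 and Dok7 were further apart than the larger SD of the pair. Chrna1 ranked at place 4 of the 10 in every WT library and at 5 or 6 in the mutant libraries, while Lrp4 ranked at place 5 in every WT library and at 1 or 2 in the mutant libraries.

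Set against the muscle content of each library, 6 of the 7 genes overlapped between the genotypes. The other, Lrp4, was higher in every mutant library, as were 45% of all genes tested. Summed over the 10 genes, there were 17.04, 13.2 and 12.01 counts per 10000 muscle-marker counts in WT and 15.97, 27.6 and 17.2 in Piezo1 GOF, in replicate order. The groups overlapped, and the highest value belonged to Piezo1 GOF replicate 2, which had the least muscle. Chrnb1, Musk, Rapsn and Dok7 had mutant to WT ratios of 1.25, 1.25, 1.14 and 1.39 on this scale, all with overlapping groups. Without Piezo1 GOF replicate 2 the ratios of Chrnb1, Musk and Rapsn were 0.942, 0.935 and 0.995.

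Of the 7 genes, Chrna1 had the lowest mean ratio on this scale, with Colq next, and Lrp4 had the highest. Chrna1 had 2.59, 1.59 and 1.99 counts per 10000 muscle-marker counts in WT and 1.196, 2.04 and 0.597 in Piezo1 GOF. The mean was 0.622 times that of WT, with the groups overlapping through Piezo1 GOF replicate 2, and leaving out each library in turn gave 0.436 (without that library) to 0.787 times (without Piezo1 GOF replicate 3). Lrp4 had 5.80, 3.75 and 3.05 in WT and 6.90, 12.4 and 9.18 in Piezo1 GOF, so that every mutant library was above every WT library. Its mean ratio was 2.26, and of all genes tested 45% likewise had every mutant library above every WT library on this scale. Colq, at a ratio of 0.729, overlapped between the groups.

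In a fit with the muscle score of each library (mean log2 CPM of the muscle markers) as a covariate, Chrna1 again had the most negative value and Lrp4 the highest of the 7. The log2 fold change of Chrna1 was then -1.79 ± 0.443 (SE), that of Chrnb1 -0.61 ± 0.302, of Musk -0.57 ± 0.277, of Rapsn -0.48 ± 0.295, of Colq -0.53 ± 0.625, of Dok7 -0.07 ± 0.459 and of Lrp4 0.38 ± 0.224. The muscle score itself was 10.5 in WT and 9.56 in Piezo1 GOF on average, so this covariate is partly aligned with genotype and rests on 6 libraries. Unlike the muscle share, the score overlapped between the groups, at 10.068 in WT replicate 1 and 10.145 in Piezo1 GOF replicate 1. Chrnb1, Musk, Rapsn and Dok7 had negative values in this fit, but mutant to WT ratios of 1.25, 1.25, 1.14 and 1.39 per muscle-marker count. Their direction after allowing for muscle thus depended on the method.

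The members also differed in how alike their profiles were over the 6 libraries. Likeness was taken as the root mean square difference of log2 CPM after centring each gene, with smaller values more alike. Chrnb1 and Musk were the closest pair of the 7 (0.0965), followed by Chrnb1 and Rapsn (0.196) and Musk and Rapsn (0.216). Chrna1 and Lrp4 were the least alike (1.11). Among 10958 other genes with a mean of at least 5 CPM, those close to Musk included 2810004N23Rik (0.0737) and Chrnb1. Those closest to Chrnb1 were Klhl24, Fxr1 and 2810004N23Rik (0.0760 to 0.0939), and those closest to Rapsn were Prune, the laminin-binding integrin gene Itga7 and Prkaa2 (0.0577 to 0.0876). Chrna1 had fewer close matches, namely Extl1 (0.249), Tnnc1 (0.287), the troponin C of slow and cardiac muscle, and Nmrk2 (0.361). Dok7 was nearest to Myh10, Dusp8 and Acsl6 (0.0948 to 0.155), Colq to Esrrb, Lgi1 and Synpo2l (0.207 to 0.268), and Lrp4 to Ddit4l, Tbc1d20 and Wdr59 (0.0750 to 0.0825). The profiles share the spread in muscle share across the libraries, so likeness over 6 libraries says nothing of a shared function.

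Other genes were listed by role, without the 10 members, to place them beside these values. The lists cover synaptic parts, other receptor subunits, the denervation response, myogenic and satellite cells, Schwann cells and motor nerve terminals. Together they are called the other junction genes, although they include genes of muscle and nerve at large. Of 105 such genes, 84 entered the fit, and 0 passed the quasi-likelihood test of edgeR, adjusted by Benjamini-Hochberg over all genes. At an unadjusted p under 0.05, 24 were lower (background 9.59%) and 5 higher (background 10.2%). The 24 held 3 partners of agrin and MuSK, 3 basal lamina genes and 7 of the dystrophin complex. The rest of the 24 were 4 denervation, 3 myogenic and satellite cell, and 4 Schwann cell genes. The 5 higher were 1 denervation, 1 myogenic, 1 Schwann cell and 2 motor nerve terminal genes. DESeq2 called 12 lower (background 2.74%) and 3 higher (background 3.73%), and edgeR's exact test 9 lower (background 1.72%) and 1 higher (background 3.36%). Every mutant library was below every WT library for 24 of the 84 (background 12.1%), and above for 5 (background 13.6%). Their median log2 fold change was -0.55.

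Genes of the dystrophin complex, which ties the postsynaptic membrane to the cytoskeleton and the basal lamina, included both lower and level members. Of 12 tested, 0 passed over all genes, 7 had an unadjusted p under 0.05 on the lower side (background 9.59%), and the median log2 fold change was -0.77. Alpha-dystrobrevin (Dtna), needed for a mature receptor pattern, was at 66.2, 78.7 and 66.7 CPM for WT and 38.1, 18.0 and 30.5 CPM for Piezo1 GOF. Its log2 fold change was -1.29 ± 0.282 (edgeR adjusted p = 0.104). Dystrophin (Dmd) had -0.98 ± 0.29 (edgeR adjusted p = 0.158). Utrophin (Utrn), the relative of dystrophin that is concentrated at the junction and made by many other cells, was at 399 to 624 CPM in WT and 488 to 544 CPM in Piezo1 GOF. Its log2 fold change was 0.09 ± 0.284 (edgeR adjusted p = 0.885).

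The ligand and the cleft showed smaller values. Agrin (Agrn) was at 63.4, 34.2 and 38.9 CPM for WT and 39.5, 17.7 and 31.3 CPM for Piezo1 GOF, with overlap (log2 fold change -0.63 ± 0.341; edgeR adjusted p = 0.332). Acetylcholinesterase (Ache), the enzyme that Colq anchors, was at 4.51 ± 1.63 and 3.79 ± 2.31 CPM (SD, n = 3; -0.23 ± 0.517; edgeR adjusted p = 0.83). Of 14 tested partners of agrin and MuSK, 0 passed, and 11 had negative values with a median of -0.31. The neuregulin receptor Erbb3 had -1.67 ± 0.627 (edgeR adjusted p = 0.206), with 23.4 CPM in WT replicate 1, the library high in Schwann cell markers, and 2.22 to 6.07 CPM in the other 5. The adaptor gene Crkl (-0.51 ± 0.187; edgeR adjusted p = 0.2) and the kinase gene Abl2 (-0.70 ± 0.276; adjusted p = 0.221) were the other genes of this list with the smallest p-values. Of 13 basal lamina genes, 0 passed and the median was -0.43. The collagen IV chain Col4a5 (-1.25 ± 0.329; edgeR adjusted p = 0.13), Lama2, the alpha chain of muscle laminin (-0.97 ± 0.329; adjusted p = 0.182), and Lama5 (-0.81 ± 0.295; adjusted p = 0.199) had the smallest p-values there.

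Transcription factors that act through the N-box had small fitted differences. Gabpa was at 48.0 ± 3.42 CPM for WT and 50.5 ± 14.3 CPM for Piezo1 GOF (SD, n = 3), with a log2 fold change of 0.07 ± 0.236 (edgeR adjusted p = 0.886). The 7 tested factors had a median of 0.11, and 0 passed. Gabpb2 had 0.30 ± 0.205 (edgeR adjusted p = 0.431), Etv4 -0.79 ± 0.527 (adjusted p = 0.426) and Ets2 -0.26 ± 0.235 (adjusted p = 0.554).

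Genes known to respond when muscle loses its nerve had mostly negative values, with exceptions. The list was not split by whether loss of the nerve raises or lowers a gene. Of 13 tested, 0 passed over all genes, 11 had negative values, and the median was -0.89. The sarcoplasmic calcium pump regulator Sln was at 88.6, 209 and 149 CPM for WT and 37.2, 51.0 and 45.3 CPM for Piezo1 GOF, without overlap (-1.74 ± 0.32; edgeR adjusted p = 0.0648). Without WT replicate 1, Sln, Hdac9 and Trim63 passed the same test on the lower side. The histone deacetylase gene Hdac9 had -1.12 ± 0.259 (edgeR adjusted p = 0.11), and the ubiquitin ligase gene Trim63 -2.18 ± 0.585 (adjusted p = 0.136), with 181 CPM in WT replicate 2 against 34.1 and 54.8 CPM in the other WT libraries. Runx1, a transcription factor gene induced by denervation, went the other way, with 108 ± 35.7 CPM for WT and 249.8 ± 112 CPM for Piezo1 GOF and no overlap (1.21 ± 0.375; edgeR adjusted p = 0.167), and DESeq2 called it. Myogenin (Myog), an E-box factor of receptor genes, was at 5.90 ± 1.52 and 3.05 ± 2.44 CPM (-0.95 ± 0.708; edgeR adjusted p = 0.474). The adhesion gene Ncam1 (-0.54 ± 0.287; edgeR adjusted p = 0.322), raised by denervation in textbook accounts, overlapped between the groups. Scn4a, the adult sodium channel of muscle, belongs to the membrane and triad list. It was at 228 ± 80.3 and 91.9 ± 68.2 CPM, without overlap (-1.31 ± 0.678, edgeR adjusted p = 0.311). Piezo1 GOF replicate 2 was at 13.6 CPM, against 138 and 124 CPM in Piezo1 GOF replicates 1 and 3.

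Myogenic and satellite cell genes had a median close to that of the muscle markers. Of 8 tested, 0 passed, 7 were negative, and the median was -1.09. The satellite cell cadherin Cdh15 had -1.87 ± 0.54 (edgeR adjusted p = 0.15) and the myogenic factor Myf6 -1.11 ± 0.399 (adjusted p = 0.196). Mef2a was the exception, with 225 ± 12.5 CPM for WT and 381 ± 82.9 CPM for Piezo1 GOF (0.76 ± 0.259; edgeR adjusted p = 0.184).

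**Figure D4:**
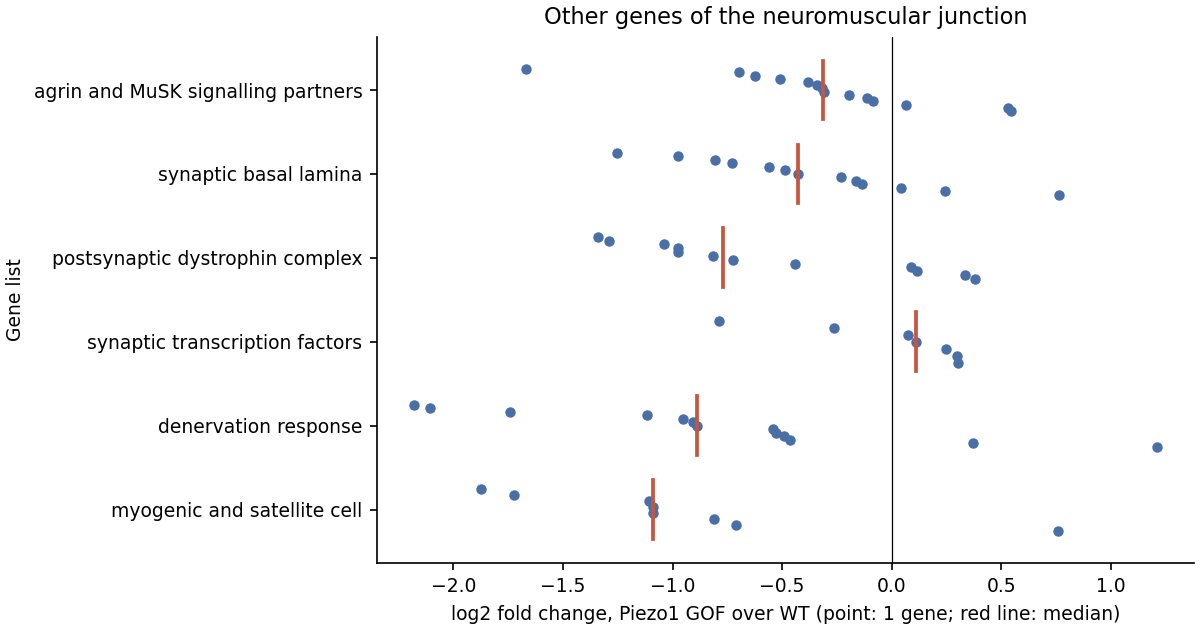
Log2 fold change (Piezo1 GOF over WT) of genes in the junction, denervation and myogenic lists. Each point is 1 gene that entered the fit and the red line is the list's median. Medians run from -1.09 in the myogenic and satellite cell list to 0.11 in the synaptic transcription factors.

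Most markers of the motor nerve terminal had few or no counts, and innervation itself was not measured. Of 12 markers of the motor nerve terminal, 3 entered the fit and 0 passed. The choline acetyltransferase gene Chat and the vesicular transporter gene Slc18a3, which define cholinergic neurons, had 0 counts in every library, which allows up to 0.192 to 0.390 CPM, for counting error only. Isl1, also made outside neurons, was at 9.13, 8.11 and 10.1 CPM for WT and 28.9, 43.5 and 20.8 CPM for Piezo1 GOF (1.77 ± 0.301; edgeR adjusted p = 0.0572). Prph had -0.997 ± 0.47 (edgeR adjusted p = 0.278) and Stmn2 0.80 ± 0.341 (adjusted p = 0.243). Of 12 Schwann cell markers, 0 passed. Prx had -3.48 ± 1.34 (edgeR adjusted p = 0.215), a value carried by WT replicate 1, which was at 184 CPM against 4.09 and 4.07 CPM in the other WT libraries and 3.51 to 7.54 CPM in the mutant libraries. Mbp was likewise at 1001 CPM in WT replicate 1, at 11.6 and 7.13 CPM in the other WT libraries and at 25.9 to 30.6 CPM in the mutant libraries. Its log2 fold change of -3.61 (edgeR adjusted p = 0.246) turned positive without WT replicate 1, and Mbp and Isl1 then passed on the higher side. Gap43 had 2.30 ± 0.824 (edgeR adjusted p = 0.193). The part of nerve content in the values of the 10 genes was not tested beyond leaving out WT replicate 1. Without it, Chrna1 passed edgeR's quasi-likelihood test over all genes, and 228 genes passed in all against 2 with every library.

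Of the 11 acetylcholine receptor subunits known from neurons and other cells, 2 had enough counts, and 0 passed. Chrna10 was at 5.50 ± 1.73 CPM for WT and 1.798 ± 1.48 CPM for Piezo1 GOF (-1.60 ± 0.74; edgeR adjusted p = 0.27), and Chrna2 at 2.35 ± 0.124 and 0.896 ± 0.834 CPM (-1.43 ± 0.725; adjusted p = 0.304). Both had lower values in every mutant library than in any WT library, but their levels fell to 0.201 CPM, below 3 counts, in Piezo1 GOF replicate 2.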

How the data were processed

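Per the labels' protocols, total RNA of Achilles tendon was made into libraries with a RamDA-seq kit and its mouse primers. The table the authors deposited holds expected counts per gene, unscaled for depth or length, with 7.80% to 8.88% of values per library not whole. Per the submitters' processing notes, the authors used bcl2fastq, STAR, RSEM and edgeR on mm10; versions, annotation and the use of strand were not stated in any source at hand, so reads of antisense genes cannot be told apart.

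Counts were rounded. Genes were kept by filterByExpr (minimum count 10), leaving 13466 of 24411, and scaled by TMM. Genotypes were compared across all these genes with the two-sided quasi-likelihood F-test of edgeR, with Benjamini-Hochberg adjustment at 0.05, without covariates. The common dispersion was 0.113. Levels are CPM, and levels per kb use the union of exons in GENCODE mouse 21, also mm10. A muscle-marker count is the sum over 32 listed genes. Ttn, which is also among the sarcomere genes, gave the most of it. It had 2987490 counts over the 6 libraries, against 804348 for Acta1, the next.

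Members and lists were chosen with earlier results of these data known. Named were all members, the 3 listed genes with the smallest p per list, a few fixed genes, and the 3 genes closest to each member in likeness. Myh7, Tnnt1, Tnni1, Tnnc2, Tnnt3, Tnni2, Actn3, Ttn, Acta1, Chat, Slc18a3, Mbp, Runx1, Piezo1 and Tnmd were named after their values were seen. Some genes that this rule names are not reported here. In simulated counts for 13466 genes drawn for this comparison, the fit called 8% of 50 genes altered by 2-fold, 80% of 50 altered by 4-fold, and 10 of 13266 left as they were. Libraries of 1 genotype differed by a chi-square of 38.7 to 133 per degree of freedom, far above sampling noise.

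Alternatives were other scaling factors, no filter, DESeq2, edgeR's exact test, a replicate block, leaving out each library, a muscle covariate, and removal of muscle markers or of Rn45s and Lars2. Ratios to sarcomere genes alone, and ratios leaving out a library, were chosen after seeing the data. The software was R 4.3.3, edgeR 4.0.16, limma 3.58.1, DESeq2 1.42.0, Python 3.11.15, numpy 2.4.6, pandas 2.3.3 and matplotlib 3.10.9.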

Additional observations from a re-analysis of the deposited data

How the results depend on the processing

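The genes called over the whole table numbered 2 (2 higher, 0 lower), and 0 with the replicate block or with the muscle score as a covariate, 165 without a filter, 685 by edgeR's exact test and 891 by DESeq2. Leaving out 1 library gave 0 to 228, with 228 without WT replicate 1 and 0 without any other. Of the members, 0 were called, against 1 without a filter (Chrna1), 3 by the exact test, 3 by DESeq2 and 0 to 1 without 1 library. Of the other junction genes, 0 were called, against 2 without a filter, 10 by the exact test, 15 by DESeq2 and 0 to 5 without 1 library. The replicate block changed no call among the members or the other junction genes. The deviations of same-numbered libraries correlated at -0.207, -0.137 and -0.0526. With deviations centred on 3 libraries per genotype, these values cannot show whether the numbers pair the libraries.

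Among the fitted fold changes of the 7 members, Lrp4 turned positive without WT replicate 2 (0.0457), without Piezo1 GOF replicate 2 (0.122, in a range from -0.276 over the left-out libraries) and with the muscle covariate (0.382); the cause was not tested. The other 6 stayed negative under every alternative run. Scaling by other factors or removing genes before scaling left Chrna1 between -2.13 and -2.06 and Musk between -1.14 and -1.06. Per muscle-marker count, the ratios of Chrnb1, Musk and Rapsn fell below 1 without Piezo1 GOF replicate 2 (0.942, 0.935 and 0.995), and reached 1.42, 1.43 and 1.273 without another library; the cause was not tested. With sarcomere genes alone as the denominator, the ratios were 0.63 for Chrna1 and 2.28 for Lrp4. With transcript length in place of exon union, Lrp4 and Chrna1 exchanged places in the WT order. The muscle share in Piezo1 GOF was 0.447 times that in WT. Low counts limit what can be said of Chrnd, Chrne and Chrng, which had at most 25 counts in any library.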
